A study of Mus musculus with 12 samples.

Results

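The response of FIZZ2-knockout mouse lung to bleomycin was read from 6 of the 12 arrays of the series, 3 knockout lungs given bleomycin and 3 knockout lungs given saline, over all 18194 genes that had at least 1 probe set naming a single gene. Each gene was read by the probe set with its highest mean over the 12 arrays. Both groups shared the FIZZ2 knockout and the C57BL/6 strain. Bleomycin or saline was placed in the trachea, and 21 days later the lungs were perfused with PBS, total RNA was extracted with Trizol, and each sample was hybridized to 1 Affymetrix array. The other 6 arrays were wild-type C57BL/6 lungs treated in the same 2 ways, 3 arrays per group. They entered the fit for the estimate of spread and for the test of whether the response differed between genotypes. The labels give no age, do not say how the knockout was made, and do not state that replicates were separate animals, so each p-value reflects how far these samples varied, which may be technical variation.

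FIZZ2, the product of Retnlb, is a small secreted protein of the resistin-like family that epithelial cells make during type 2 inflammation. Bleomycin breaks DNA, injures the alveolar epithelium and is followed by macrophage influx, fibroblast activation and deposition of collagen and elastin, which is why it is widely used as a model of lung fibrosis in mice. The comparison asks what this injury still does to lung RNA when FIZZ2 is absent. All values are log2 intensities, so a difference of 1 is a 2-fold change, and arrays are always listed in the order of replicates 1, 2 and 3. A gene was called when limma's moderated test gave an adjusted p under 0.05, with the Benjamini-Hochberg adjustment made over all genes. Each ± is a standard error from the fit of all 12 arrays, in which the 4 groups share the estimate of a gene's spread.

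The targeted gene offered no check of the labels. Retnlb read 3.69, 3.54 and 3.83 in knockout saline lungs and 3.67, 3.72 and 3.49 in knockout bleomycin lungs, and the 6 wild-type arrays read between 3.57 and 4.13. Its probe set was dim in every group, and whether it lies within the deleted part is not given in the sources used here. Arrays within the knockout groups correlated at 0.994 to 0.997 over all genes and arrays of different knockout groups at 0.992 to 0.994, and array medians lay between 5.58 and 5.68. The number of arrays limits the precision. The 3-prime to 5-prime difference of the actin control probe sets was 0.63 to 0.93 in knockout saline and 0.53 to 0.83 in knockout bleomycin arrays.

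Bleomycin changed 594 of 18194 genes in knockout lung, which is 3.26% of those tested. Of these, 360 genes (1.98%) rose and 234 (1.29%) fell. The share that rose was 60.6%, and 75.5% when each array's median was subtracted. At least 2-fold changes numbered 69 rises and 21 falls, and 9 genes rose at least 4-fold and 0 fell that far. An unadjusted limma p under 0.05 was found for 3267 genes, where 909.7 would be expected if no gene had changed. The median change was 0.63 among the genes that rose and -0.52 among those that fell, against 0.01 over all genes. Only 1 of the 594 called genes had knockout saline and bleomycin arrays that overlapped. For a called gene, groups that do not overlap are therefore no separate support, here or below. The count was sensitive to single knockout arrays. It was 246, 211 and 292 without knockout saline replicate 1, 2 or 3, and 672, 245 and 292 without knockout bleomycin replicate 1, 2 or 3. Knockout bleomycin replicate 1 was the lowest of the 3 bleomycin arrays for 266 of the 360 genes that rose, against 65 and 29 for replicates 2 and 3, and the highest for 118 of the 234 that fell.

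The gene that rose furthest was Mmp12, the macrophage metalloelastase that cleaves elastin. It read 5.61, 4.86 and 5.15 in knockout saline lungs and 8.90, 9.84 and 9.29 in knockout bleomycin lungs. Every bleomycin array stood more than 3 log2 units above every saline array, and the rise was 17.6-fold (log2 4.14 ± 0.26 SE, adjusted p = 7.48e-06). Gpnmb, a glycoprotein of lysosome-rich macrophages, read 7.12, 7.23 and 7.19 against 9.18, 9.59 and 9.60. Its groups were tight and far apart, a 4.85-fold rise (2.28 ± 0.13, adjusted p = 4.35e-06). Trem2, the lipid-sensing receptor of such macrophages, read 5.94, 5.42 and 5.72 in saline arrays and 7.26, 7.92 and 8.07 in bleomycin arrays, a 4.17-fold rise (2.06 ± 0.22, adjusted p = 0.000465). Gpnmb and Trem2 each had a second, dimmer probe set that was not called, with changes of 0.16 and 0.17.

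Elastin and tenascin led the matrix genes. Eln, the core protein of elastic fibres, read 8.91, 9.16 and 9.13 after saline and 10.60, 11.40 and 11.22 after bleomycin, 4.02-fold higher (2.01 ± 0.19, adjusted p = 0.000267). Tnc, which encodes the wound-matrix glycoprotein tenascin C, read 6.62, 6.81 and 6.96 against 8.05, 9.09 and 9.23, 3.99-fold higher (1.99 ± 0.26, adjusted p = 0.00209). In both genes bleomycin replicate 1 was the lowest treated array. That it stood above all saline arrays was required of the 12 largest rises. Psrc1, a spindle-associated protein and p53 target, read 4.94, 4.53 and 4.49 against 6.00, 7.02 and 7.38, 4.44-fold higher (2.15 ± 0.28, adjusted p = 0.00169). The other rises among the 12 largest were Jchain (2.85), the C-type lectin Clec4n (1.98), the macrophage membrane protein Ms4a7 (1.90), the endopeptidase Phex (1.69), the complement subunit C1qb (1.67) and the anion exchanger Slc26a4 (1.66). All 12 kept their call in each of 20 alternatives, which were other normalizations, filters and weights and each of the 12 arrays left out in turn. A dimmer probe set that was not called gave 1.04 for Tnc, 0.05 for Psrc1, 0.28 for Ms4a7 and 0.26 for Phex.

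The largest falls were smaller and of mixed kind. Stfa2l1, a stefin of neutrophils, read 6.54, 5.50 and 6.35 in saline arrays and 4.28, 3.77 and 4.43 in bleomycin arrays, 3.91-fold lower (-1.97 ± 0.27, adjusted p = 0.0024). Ankrd63, an ankyrin repeat protein, read 8.60, 8.58 and 8.33 against 7.31, 7.09 and 6.01 (-1.70 ± 0.25, adjusted p = 0.00375), with bleomycin replicate 3 the lowest. Slfn4, a myeloid schlafen, read 7.69, 7.38 and 8.02 against 6.15, 5.58 and 6.51 (-1.62 ± 0.24, adjusted p = 0.00423). None of these groups overlapped, which the rule that picked the largest falls required. Ifitm6, an interferon-induced transmembrane protein of myeloid cells, read 7.78, 7.76 and 7.94 against 6.79, 6.30 and 6.45 (-1.31 ± 0.16, adjusted p = 0.00136). S100a8 and S100a9 also stood among the 12 largest falls.

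The remaining large falls rested on fewer arrays. Smim6 read 9.03, 8.51 and 8.58 against 6.96, 8.03 and 7.04 (-1.36 ± 0.25, adjusted p = 0.0116), and its adjusted p was 0.0555 without knockout saline replicate 1 and 0.0515 without knockout bleomycin replicate 3. Cox8b, a cytochrome oxidase subunit of muscle and brown fat, read 9.24, 8.39 and 8.13 against 6.61, 6.68 and 7.81 (-1.55 ± 0.31, adjusted p = 0.0178). Its adjusted p was 0.0682 without saline replicate 1, 0.0822 without bleomycin replicate 2 and 0.0509 in a fit of the 6 knockout arrays alone. Tcap (-1.39), Pln (-1.39) and Ryr2 (-1.24) of striated muscle and Asgr1 (-1.36), an asialoglycoprotein receptor subunit, completed the 12. The 3 muscle genes lost their calls without any knockout array but bleomycin replicate 3, and Asgr1 without any but bleomycin replicate 1, with adjusted p up to 0.13 for Tcap, 0.134 for Pln, 0.189 for Ryr2 and 0.151 for Asgr1. Leaving out wild-type bleomycin replicate 2 also ended the calls of Pln, Ryr2 and Asgr1, wild-type bleomycin replicate 3 those of Pln and Ryr2, wild-type saline replicate 1 those of Ryr2 and Asgr1 and wild-type saline replicate 2 that of Ryr2.

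**Figure D1:**
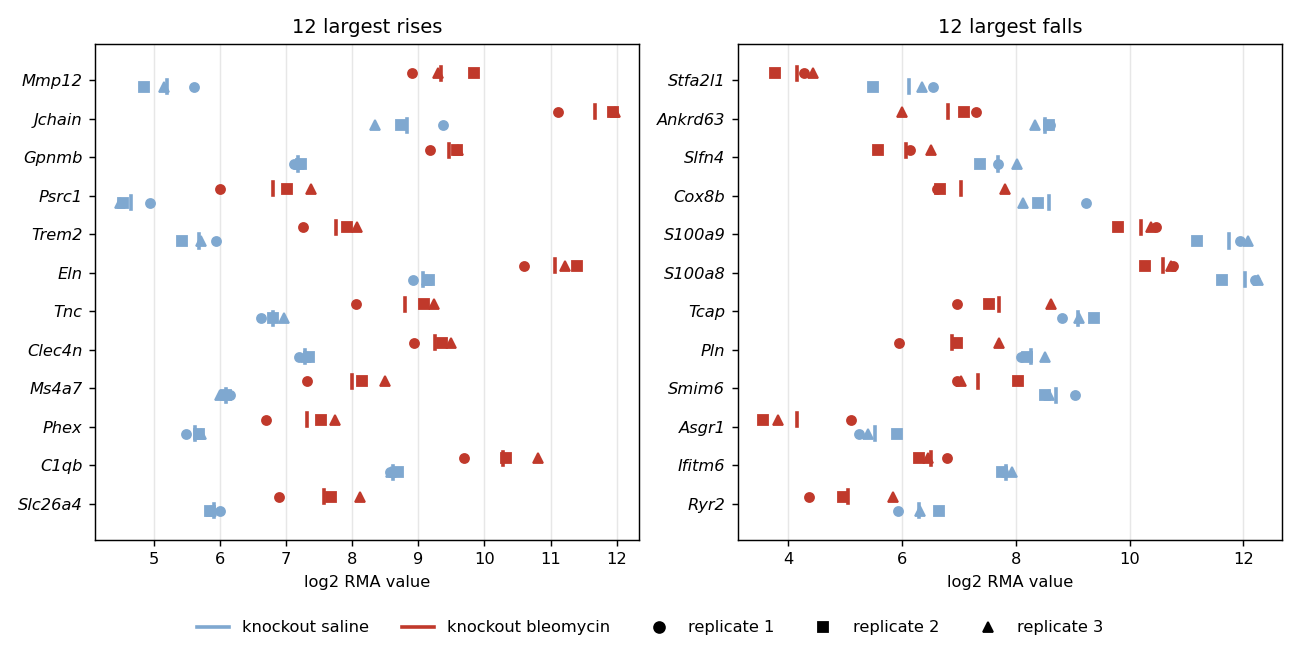
Log2 intensity (horizontal axis) of the 12 genes with the largest rises (left) and the 12 with the largest falls (right) in FIZZ2-knockout lung; blue is saline, red is bleomycin, the marker shape gives the replicate and the vertical bar the group mean. Mmp12 rose from 4.86 to 5.61 in saline arrays to 8.90 to 9.84 in bleomycin arrays, and the striated muscle genes at the right have 1 bleomycin array, replicate 3, near the saline arrays.

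Collagen chains rose as a broad group of moderate changes. Of 31 chains measured, 10 rose and 0 fell, beside 1.98% and 1.29% of all genes, with a median change of 0.37 against 0.01 over all genes. The same values over all genes apply to the knockout calls and medians of every list below. The count of rises was stable, at 9 or 10 whichever knockout array was left out, and 1 chain fell without bleomycin replicate 1. Col3a1, a fibrillar chain of interstitial collagen, read 11.85, 11.85 and 11.64 after saline and 12.73, 12.97 and 13.06 after bleomycin. Its groups did not overlap, a 2.20-fold rise (1.14 ± 0.10, adjusted p = 0.000147). Col5a2, a chain of the fibrillar collagen that seeds fibril assembly, read 9.13, 8.98 and 8.98 against 10.21, 10.44 and 10.65, 2.65-fold higher (1.41 ± 0.15, adjusted p = 0.00042). Col1a1, the main fibrillar chain, read 9.04, 9.08 and 8.95 against 10.01, 10.23 and 10.35, 2.25-fold higher (adjusted p = 0.00638). The other rises were Col1a2 (0.71), the basement membrane chains Col4a1 (0.62), Col4a2 (0.63) and Col4a5 (0.67), and the microfibrillar chains Col6a1 (0.50), Col6a2 (0.64) and Col6a3 (0.70). In bulk lung, more cells of a type and more RNA per cell cannot be told apart, here or for any group below.

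Some chains passed the test of a response that differed from wild type and others did not. With 3 arrays per group, not passing does not show an equal response. The median difference over the 31 chains was -0.36. Col3a1 changed by 1.14 in knockout and 1.09 in wild type (difference 0.05, adjusted p = 0.868), and Col6a2 by 0.64 and 0.58 (difference 0.06, adjusted p = 0.842). Col3a1 was read here by 1 of its 2 probe sets. The other was also called in knockout, with a rise of 2.06, and its difference from wild type was not examined. With saline alone, read on the same knockout saline arrays, Col3a1 was already lower in knockout, by -0.55 (adjusted p = 0.0303), and its mean after bleomycin was 12.92 in knockout and 13.41 in wild type. Col1a1 changed by 1.17 in knockout and 2.45 in wild type, a difference of -1.27 (adjusted p = 0.0205), and Col5a2 by 1.41 and 2.40 (difference -1.0, adjusted p = 0.019). Over the list, 7 of 31 chains had a smaller change in knockout by that test and 0 a larger one, where 3% and 2.03% of all genes did. Col3a1 and Col6a2 were picked here after their values were seen.

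Of 21 genes that process collagen 2 rose and 0 fell, where 1.98% of all genes rose. Their median was 0.18, and the rises numbered 1, 1, 1, 3, 2 and 1 without saline replicates 1 to 3 and bleomycin replicates 1 to 3. Serpinh1, the collagen chaperone of the endoplasmic reticulum, read 10.20, 10.44 and 10.37 after saline and 10.99, 11.09 and 11.22 after bleomycin (0.77 ± 0.08, adjusted p = 0.000601), with no overlap, and its response differed from the wild-type one by 0.11 (adjusted p = 0.635). After saline alone Serpinh1 was lower in knockout by -0.55 (adjusted p = 0.0123), a comparison that shares the knockout saline arrays. The crosslinking enzyme Loxl1 rose by 0.58 (adjusted p = 0.0202), but adjusted p reached 0.081 without knockout saline replicate 1, 0.0768 without replicate 2, 0.0538 without replicate 3 and 0.075 without bleomycin replicate 3. Lox, the first of these crosslinking oxidases, read 8.80, 9.16 and 9.09 against 9.71, 9.76 and 9.91 without passing the test (0.77 ± 0.21, adjusted p = 0.0704). Wild-type lung had a Lox change of 2.22, and the difference of -1.45 passed (adjusted p = 0.0181).

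Among elastic fibre genes and matrix glycoproteins 8 of 26 rose and 0 fell, beside 1.98% and 1.29% of all genes, and the median was 0.35. Counts were 5, 7 and 6 without knockout saline replicate 1, 2 or 3 and 9, 6 and 6 without bleomycin replicate 1, 2 or 3. Beside Eln and Tnc, the latent TGF-beta binding protein Ltbp2 read 8.79, 8.75 and 8.92 against 9.55, 10.44 and 10.12 (1.21 ± 0.21, adjusted p = 0.00762). Fn1, fibronectin, read 10.87, 10.93 and 11.03 against 11.43, 11.76 and 11.98 (0.78 ± 0.13, adjusted p = 0.00677; 0.0656 with all its probe sets averaged). Sparc, a collagen-binding matricellular protein, rose by 0.59 (adjusted p = 0.00237), and its change differed from wild type by -0.04 (adjusted p = 0.866).

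Mfap4, a microfibril protein, had the opposite relation to wild type. It read 10.92, 11.18 and 11.26 in knockout saline and 11.94, 11.77 and 11.84 in knockout bleomycin lungs (0.73 ± 0.14, adjusted p = 0.0147; 0.0699 without saline replicate 1). In wild type the change was -0.02, and the difference of 0.75 passed narrowly (adjusted p = 0.0493). Dpt, dermatopontin, a fibroblast matrix protein, rose by 0.64 in knockout (adjusted p = 0.00845) against 0.06 in wild type, a difference of 0.57 that did not pass (adjusted p = 0.0518). These were the 2 of 19 fibroblast markers that rose in knockout, where 0 fell and the list median was -0.15. Postn, periostin, another matricellular protein, changed by 0.16 without passing (adjusted p = 0.417). Nid1 (0.38) and Mfap5 (0.54) passed but lost their calls without most single knockout arrays, with adjusted p up to 0.0866 for Nid1 over those arrays and 0.13 for Mfap5. Among proteoglycan and hyaluronan genes 2 of 22 rose and 1 fell, beside 1.98% and 1.29% of all genes. The fall was the small leucine-rich proteoglycan Ogn (-0.60, adjusted p = 0.00893), and the rises, Agrn (0.36) and Sdc1 (0.35), were both lost without knockout saline replicate 1 or 2 or bleomycin replicate 2 or 3.

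Matrix proteases and their inhibitors gave 9 rises and 1 fall among 28 genes, with a median of 0.25. Counts of rises were 5, 5 and 7 without knockout saline replicate 1, 2 or 3 and 9, 6 and 6 without bleomycin replicate 1, 2 or 3. Mmp2, a gelatinase of fibroblasts, read 9.26, 9.04 and 9.02 against 10.25, 10.83 and 10.89, 2.93-fold higher (1.55 ± 0.14, adjusted p = 0.000267). The wild-type change was 1.21 and the difference did not pass (0.34, adjusted p = 0.357). Ctsk, a collagen-degrading cysteine protease, read 8.12, 8.12 and 7.88 against 9.11, 9.83 and 9.94, 3.01-fold higher (1.59 ± 0.18, adjusted p = 0.000601). Mmp19 rose by 1.25, and the membrane-anchored Mmp14 by 0.95, the latter with adjusted p between 0.055 and 0.0834 when any knockout array but bleomycin replicate 1 was left out. Mmp9, the neutrophil gelatinase, was the 1 that fell (-1.0 ± 0.14, adjusted p = 0.00237).

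Timp1, the inhibitor of many metalloproteinases, read 6.61, 6.52 and 6.68 in knockout saline and 7.34, 8.07 and 8.36 in knockout bleomycin lungs. Its groups did not overlap, but the bleomycin arrays were spread over 1 log2 unit, and the 2.50-fold rise (1.32 ± 0.31, adjusted p = 0.036) was lost without any knockout array but bleomycin replicate 1 (adjusted p up to 0.138). In wild type Timp1 changed by 4.01. The difference of -2.69 ± 0.44 (adjusted p = 0.0066) was the most negative among genes that were called in knockout and also in the difference.

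Signals that act on fibroblasts changed in both directions. Of 24 TGF-beta, activin and BMP genes, 3 rose and 2 fell, beside 3.26% of all genes called, with a median of 0.11. Rises numbered 2, 1, 1, 4, 1 and 2 without saline replicates 1 to 3 and bleomycin replicates 1 to 3, and falls 0 in each case but the 3 without bleomycin replicate 1. The receptor Tgfbr1 rose by 0.54 (adjusted p = 0.00677; 0.43 with all its probe sets averaged), Tgfb2 by 0.46 (adjusted p = 0.0168) and Tgfb3 by 0.40, and the coreceptor Tgfbr3 (-0.54) and the inhibitory Smad7 (-0.47) fell. The calls of Tgfb3, Tgfbr3 and Smad7 ended without any knockout array but bleomycin replicate 1, and that of Tgfb2 without saline replicate 2 or 3 or bleomycin replicate 2 (adjusted p = 0.0867, 0.0558 and 0.0578). Tgfb1 itself (0.25, adjusted p = 0.214) and its target Ccn2 (0.43, adjusted p = 0.178) did not pass. Of 26 growth factor genes, 3 rose and 2 fell, with a median of 0.04, and without single knockout arrays 2 or 3 rises were called and 0 falls, except 3 falls without bleomycin replicate 1. Igf1, a fibroblast and macrophage growth factor, read 7.25, 7.16 and 7.50 against 8.06, 8.87 and 9.13, 2.61-fold higher (1.39 ± 0.24, adjusted p = 0.00948). Igfbp2, an IGF-binding protein that also marks alveolar type 1 cells, read 10.28, 9.94 and 10.54 against 11.15, 11.34 and 11.29 (1.01 ± 0.17, adjusted p = 0.00699). Igfbp7 (0.38) rose, and Igfbp6 (-0.86) and the receptor Igf1r (-0.39) fell, each with a call that ended without any knockout array but bleomycin replicate 1, and for Igfbp7 without that one too.

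**Figure D2:**
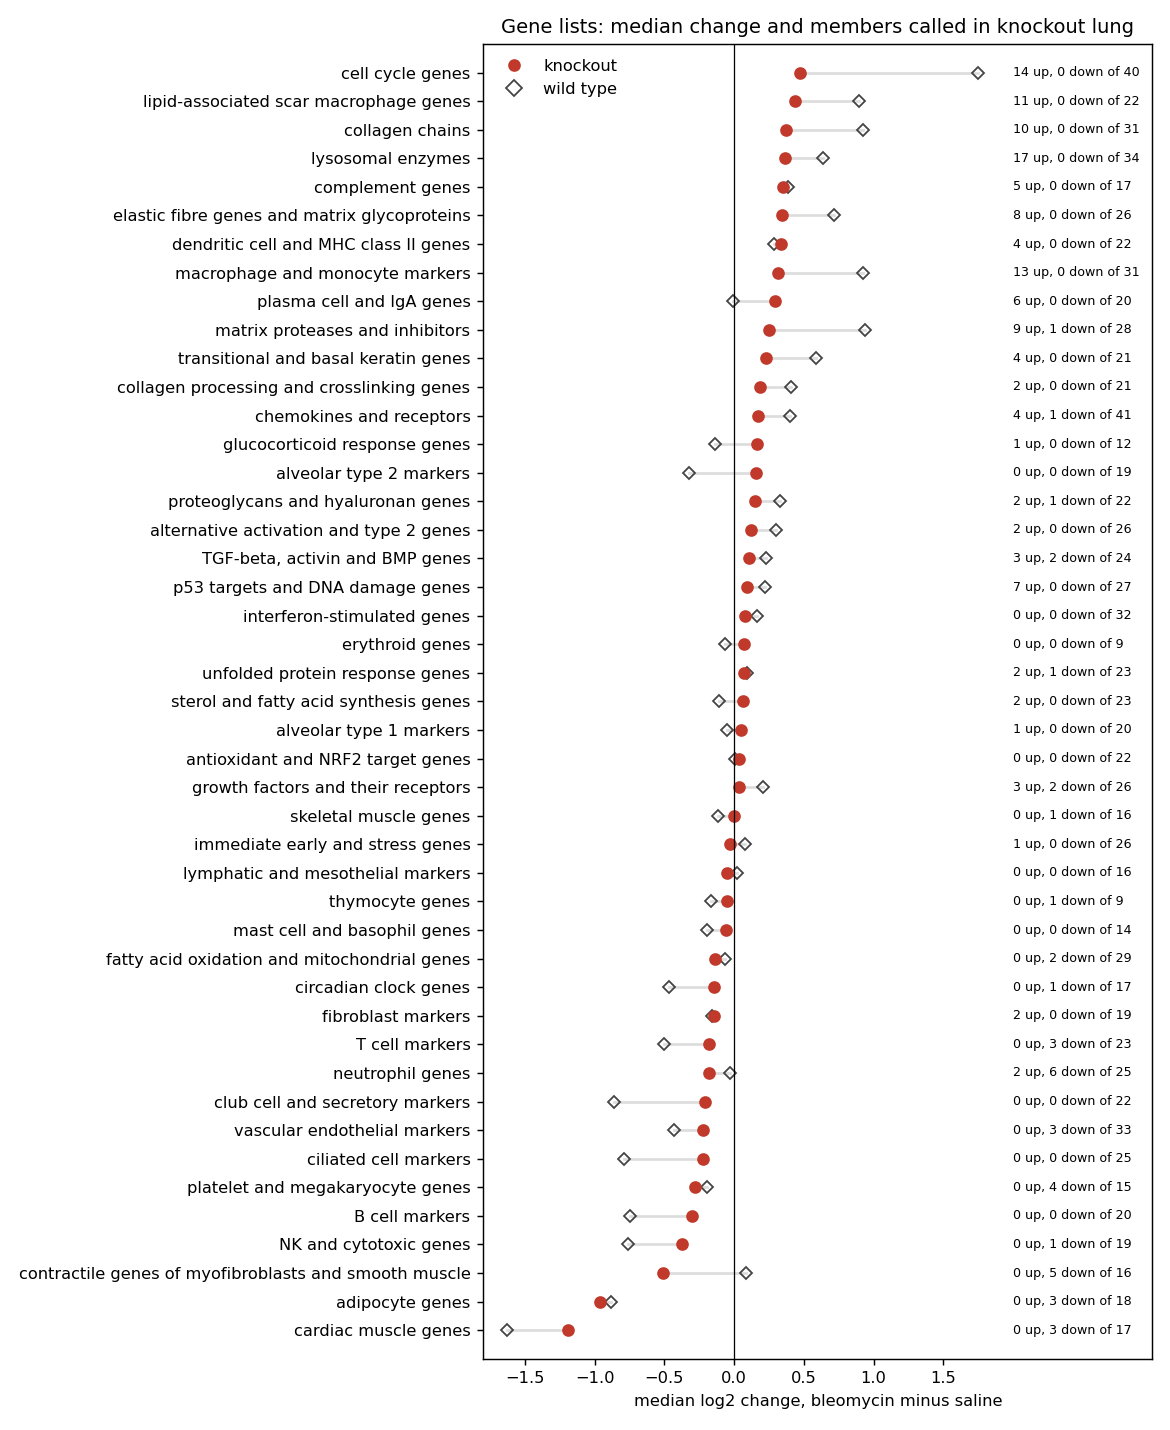
Median log2 change after bleomycin (horizontal axis) for each gene list (vertical axis); red is knockout, open diamonds are wild type and the text at the right gives the number of measured members called in knockout. Lysosomal enzymes had the most calls (17 of 34), the cell cycle list had a median of 0.48 in knockout and 1.75 in wild type, and the cardiac list was the lowest (-1.19).

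Macrophages, which engulf debris and direct fibroblasts after lung injury, were marked by a rise. Among 31 markers of macrophages and monocytes 13 rose and 0 fell, beside 1.98% and 1.29% of all genes, with a median of 0.32. Counts of rises were 8, 8 and 11 without knockout saline replicate 1, 2 or 3 and 14, 7 and 9 without bleomycin replicate 1, 2 or 3. Without bleomycin replicate 1 there was also 1 fall. Cd68, the lysosomal membrane protein of macrophages, read 8.20, 8.30 and 8.26 after saline and 9.24, 9.33 and 9.62 after bleomycin. Both groups were narrow and stood about 1 log2 unit apart, a 2.20-fold rise (1.14 ± 0.11, adjusted p = 0.000276). Clec7a, the beta-glucan receptor, read 10.04, 10.03 and 10 against 10.71, 11.18 and 11.27 (1.03 ± 0.13, adjusted p = 0.00136). Ctss, the cysteine protease that trims the class II invariant chain, read 12.10, 11.97 and 12.04 against 12.68, 12.98 and 13 (0.85 ± 0.10, adjusted p = 0.000723).

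Beyond Ms4a7, the other macrophage markers that rose were the scavenger receptor Msr1 (1.26), the allograft inflammatory factor Aif1 (0.98), the Fc receptor Fcgr3 (0.93), the integrin chains Itgax (0.89) and Itgb2 (0.48), Adgre1 (0.69), Mpeg1 (0.61), the mannose receptor Mrc1 (0.49) and the galectin Lgals3 (0.44). Itgax, Fcgr3 and Mpeg1 kept their calls in all alternatives. Mrc1 and Lgals3 lost theirs when any knockout array but bleomycin replicate 1 was left out, with adjusted p up to 0.113 and 0.125. In the test of the difference, 13 of the 31 markers had a smaller change in knockout than in wild type and 0 a larger one, beside 3% and 2.03% of all genes. Cd68 changed by 2.16 in wild type (difference -1.02, adjusted p = 0.0048) and Clec7a by 2.0 (difference -0.97, adjusted p = 0.0111).

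The lipid-associated program of scar macrophages, which shares Mmp12, Gpnmb, Trem2 and several cathepsins with other lists, had 11 rises and 0 falls among 22 genes. The median was 0.44, with changes from -1.56 to 4.14. Rises numbered 7, 7, 8, 11, 7 and 7 without saline replicates 1 to 3 and bleomycin replicates 1 to 3. Without bleomycin replicate 3 the list also had 1 fall. Atp6v0d2, a subunit of the proton pump that acidifies lysosomes, read 7.87, 8.06 and 8.0 against 8.95, 9.20 and 9.23, 2.22-fold higher (1.15 ± 0.14, adjusted p = 0.00126). Apoe, the lipid carrier, rose by 0.73. Of 26 genes of alternative, type 2 activation 2 rose, Mrc1 and the chemokine Ccl8, and 0 fell. Rises on that list numbered 1, 1, 0, 5, 0 and 1 as saline replicates 1 to 3 and bleomycin replicates 1 to 3 were left out.

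Arg1, the arginase of alternatively activated macrophages, read 5.55, 5.70 and 5.73 in knockout saline lungs and 5.72, 6.03 and 5.90 in knockout bleomycin lungs. The groups overlapped slightly, and the change of 0.23 ± 0.43 was not called (adjusted p = 0.841). That error and p-value rest on the spread of all 12 arrays and do not measure the spread of the knockout arrays alone. Wild-type lungs had a change of 4.38, and the difference of -4.15 ± 0.61 passed (adjusted p = 0.00441). Retnla, which encodes FIZZ1, the close relative of FIZZ2, read 10.12, 9.60 and 9.94 against 8.91, 9.70 and 10.10. These groups overlapped, the change of -0.32 ± 0.22 was not called (adjusted p = 0.507), and without bleomycin replicate 1 it was 0.012. The wild-type change was 2.01, a difference of -2.33 (adjusted p = 0.00298). None of the 3 resistin-family genes measured was called in knockout, as Retnlb gave -0.06 (adjusted p = 0.834) and Retn, made by adipocytes, -1.16 (adjusted p = 0.218).

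Lysosomal enzymes, the acid hydrolases that digest engulfed material, had 17 rises among 34, 0 falls, 32 positive changes and a median of 0.37. The count was 9, 9 and 11 without knockout saline replicate 1, 2 or 3 and 16, 10 and 9 without bleomycin replicate 1, 2 or 3. Acp5, the tartrate-resistant acid phosphatase, read 8.02, 7.90 and 7.80 against 8.85, 8.92 and 9.21 (1.09 ± 0.11, adjusted p = 0.00032). Ctsd, the main aspartic protease of lysosomes, read 10.95, 11.02 and 11.13 against 11.60, 11.85 and 11.88 (0.74 ± 0.10, adjusted p = 0.00169). Neither gene's groups overlapped. Beside Ctsk and Ctss, further rises of 0.37 to 0.65 were seen for the cathepsins Ctsh, Ctsz, Ctsb, Ctsc and Ctsa, the legumain Lgmn, the acid lipase Lipa and the glycosidases Gusb, Naglu, Hexa, Man2b1, Neu1 and Glb1. The membrane protein Lamp1, measured with them, changed by 0.12 (adjusted p = 0.376). The macrophage markers, many of which sit in lysosomes, moved with this list, and their part in it was not tested.

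Complement genes gave 5 rises and 0 falls among 17, beside 1.98% and 1.29% of all genes, at a median of 0.35. There were 4 or 5 rises whichever knockout array was left out. The 3 chains of C1q moved together. C1qa read 8.91, 9.02 and 8.75 against 9.77, 10.62 and 10.76 (1.49 ± 0.20, adjusted p = 0.00237), C1qb rose by 1.67 (adjusted p = 0.00126) and C1qc by 1.52 (adjusted p = 0.00226). C3ar1, the receptor for the C3a fragment, read 5.93, 5.96 and 5.70 against 6.79, 7.75 and 7.74 (1.56 ± 0.20, adjusted p = 0.00176), and Cd59a, a membrane inhibitor of the terminal complex, rose by 0.36. Chemokines and their receptors gave 4 rises and 1 fall among 41. Ccl6 (0.91, adjusted p = 0.00209) and Ccl9 (0.95, adjusted p = 0.00826), both macrophage products, and the membrane-bound Cxcl16 (0.64, adjusted p = 0.00351) rose. Ccl8 rose by 1.58 (adjusted p = 0.0138), with an adjusted p of 0.057 without saline replicate 3 and without bleomycin replicate 2. The fall was the platelet chemokine Ppbp. Without bleomycin replicate 1 the chemokine rises numbered 11. The Ccl9 change was 2.66 in wild type, a difference of -1.71 (adjusted p = 0.00298).

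**Figure D3:**
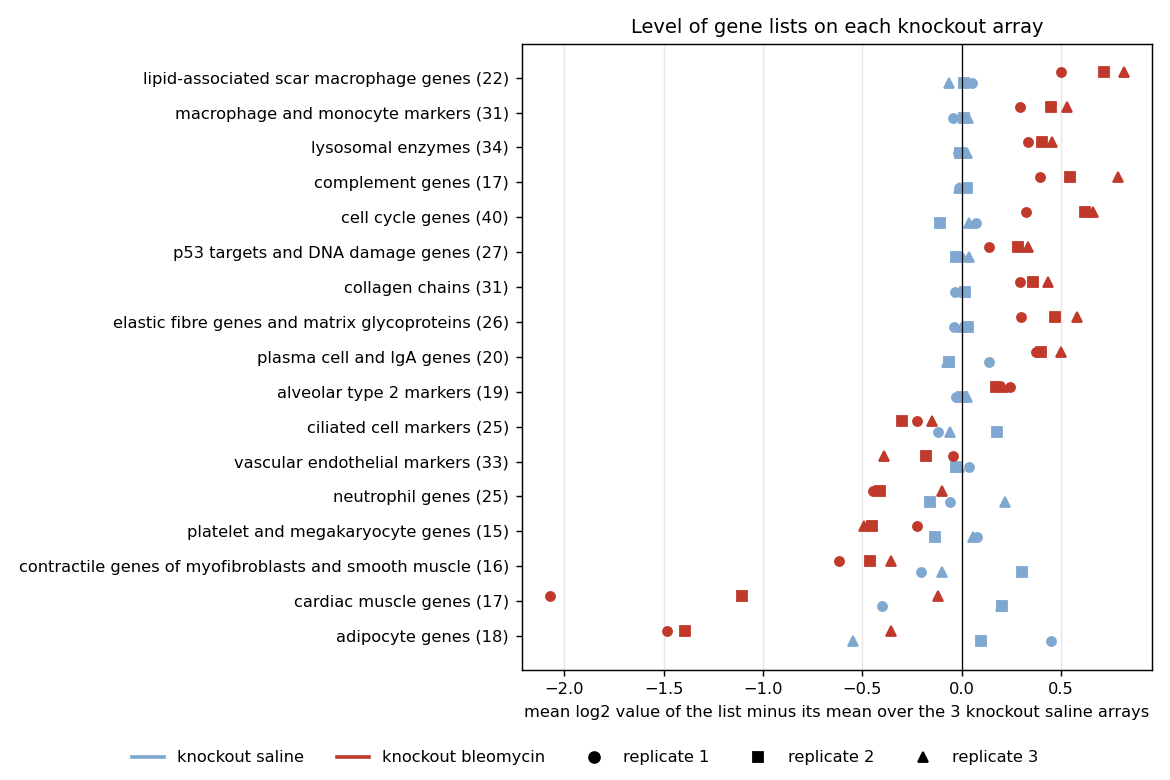
Mean log2 intensity of the members of each list in each knockout array, less the mean of that list over the 3 knockout saline arrays (horizontal axis), by list with its number of genes (vertical axis); blue is saline, red is bleomycin and marker shape is the replicate. For collagen chains the 3 bleomycin arrays stood 0.29, 0.36 and 0.43 above the saline mean, while for cardiac muscle genes they stood at -2.07, -1.11 and -0.12.

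Neutrophil genes moved in both directions. Of 25 measured, 2 rose and 6 fell, with a median of -0.18, and 2 rises and 6 or 7 falls were called whichever knockout array was left out. S100a8, an abundant calcium-binding protein of neutrophil cytosol, read 12.21, 11.62 and 12.25 in knockout saline lungs and 10.76, 10.27 and 10.72 in knockout bleomycin lungs, 2.72-fold lower (-1.44 ± 0.20, adjusted p = 0.00267). S100a9, its partner, read 11.95, 11.19 and 12.09 against 10.47, 9.79 and 10.37 (-1.53 ± 0.25, adjusted p = 0.00639). Saline replicate 2 was the lowest saline array in both and still above the bleomycin arrays. Csf3r, the receptor for the neutrophil growth factor G-CSF, read 9.04, 8.43 and 8.89 against 7.95, 7.65 and 7.62 (-1.05 ± 0.14, adjusted p = 0.00237). Mmp9 read 7.83, 7.54 and 7.83 against 7.08, 6.43 and 6.68. With Stfa2l1 and Slfn4 these were the 6 falls.

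The 2 rises were genes that epithelium and endothelium also make in inflammation. Lrg1, a secreted leucine-rich glycoprotein, read 9.85, 10.01 and 9.89 against 10.92, 11.16 and 11.20 (1.18 ± 0.09, adjusted p = 4.89e-05). Its change was smaller than in wild type, by -0.73 (adjusted p = 0.00879). Lcn2, the iron-siderophore-binding lipocalin, read 9.21, 9.32 and 9.57 against 10.13, 10.36 and 10.77 (1.05 ± 0.19, adjusted p = 0.00982), and its difference from wild type did not pass (-0.30, adjusted p = 0.55). The granule genes Ngp (-0.65, adjusted p = 0.422) and Camp (-0.92, adjusted p = 0.279) were not called. Both were high in knockout saline replicate 3, at 6.97 and 6.69, where the other knockout arrays lay between 4.99 and 5.16 for Ngp and between 4.30 and 4.57 for Camp.

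Several of these genes differed by genotype after saline alone. Comparing knockout with wild-type saline lungs, which uses the same knockout saline arrays, 7 of the 25 neutrophil genes were higher in knockout, where 0.297% of all genes were. S100a8 was higher by 1.26 (adjusted p = 0.0153), S100a9 by 1.37 (adjusted p = 0.0325), Stfa2l1 by 1.86 (adjusted p = 0.00895), Csf3r by 0.93 (adjusted p = 0.0128) and Mmp9 by 0.84 (adjusted p = 0.0163). The other genes of the 7 were Il1b (1.53, adjusted p = 0.0111) and Mmp8 (0.75, adjusted p = 0.0208). In the plot of the 4 groups the knockout bleomycin arrays of S100a8, at 10.27 to 10.76, overlapped the wild-type saline range of 10.50 to 10.91. Stfa2l1 read 4.12 to 4.37 in wild-type saline lungs, close to its 3.77 to 4.43 in knockout bleomycin lungs. Ifitm6, of the largest falls, was also higher in knockout saline lungs, by 1.15 (adjusted p = 0.00733). Of these genes the response itself differed between genotypes for Stfa2l1 (difference -1.51, adjusted p = 0.0418), and not by the test for S100a8 (-0.44, adjusted p = 0.393), S100a9 (-0.10, adjusted p = 0.906), Csf3r (-0.34, adjusted p = 0.363) or Mmp9 (-0.21, adjusted p = 0.578).

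**Figure D4:**
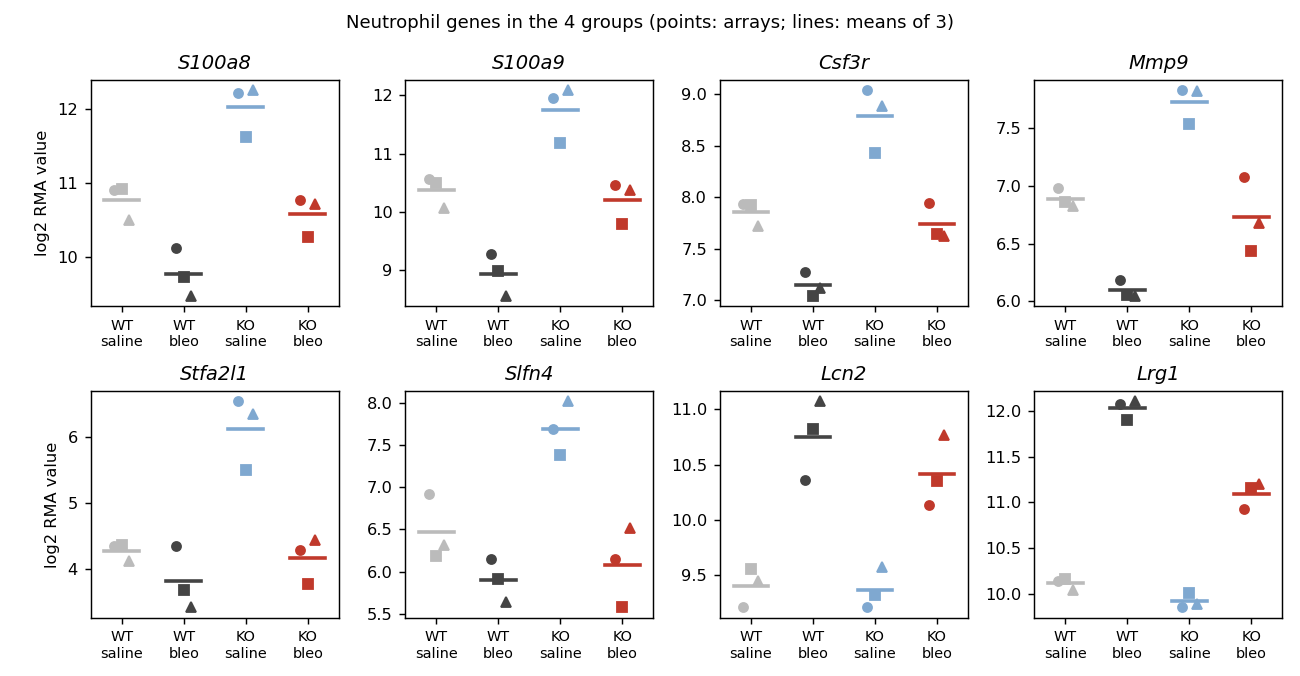
Log2 intensity (vertical axis) of 8 neutrophil genes in the 4 groups (horizontal axis); points are arrays, marker shape is the replicate and lines are group means. S100a8 averaged 10.77 in wild-type saline, 9.77 in wild-type bleomycin, 12.03 in knockout saline and 10.59 in knockout bleomycin lungs, whereas Lrg1 rose from 9.92 to 11.10 in knockout.

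Of 20 genes of antibody-secreting cells 6 rose, where 1.98% of all genes did. By the test of the difference the change was more positive in knockout for 2 of the 20, Igha and Mzb1, where it was for 2.03% of all genes. Igha, the constant region of IgA, read 11.37, 11.19 and 11.14 in knockout saline and 12.98, 13.51 and 13.57 in knockout bleomycin lungs, 4.35-fold higher (2.12 ± 0.16, adjusted p = 4.89e-05). In wild type it changed by 0.96, and the difference of 1.16 ± 0.23 passed (adjusted p = 0.0152). Jchain, which links IgA and IgM into polymers, read 9.38, 8.75 and 8.35 against 11.11, 11.94 and 11.97, 7.19-fold higher (2.85 ± 0.29, adjusted p = 0.000358). The wild-type change was 1.47, and the difference of 1.38 did not pass (adjusted p = 0.071). Ighm read 11.59, 10.53 and 9.98 against 12.82, 12.20 and 12.18 (1.70 ± 0.32, adjusted p = 0.0139; 0.0677 without saline replicate 2). Mzb1, an antibody-folding cofactor, was not called in knockout (0.37, adjusted p = 0.249), but the wild-type change was -0.55 and the difference passed (0.91, adjusted p = 0.0388). It was picked for that difference after its values were seen. Of 20 plasma cell genes measured 6 rose and 0 fell, the others being Slamf7 (0.56), Derl3 (0.36) and Sdc1 (0.35). Counts were 4, 2 and 3 without knockout saline replicate 1, 2 or 3 and 5, 3 and 3 without bleomycin replicate 1, 2 or 3.

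Other lymphocyte genes did not rise. Of 20 B cell markers 0 were called, with 4 positive changes and a median of -0.31, and the receptor chain Cd79a gave -0.30 (adjusted p = 0.452). Among 23 T cell markers 3 fell, Cd8b1 (-0.60, adjusted p = 0.0265), Lef1 (-0.52) and Cd3d (-0.43), and 0 rose. None of the 3 falls was called without knockout saline replicate 1 or 2 or bleomycin replicate 2 or 3. The cytotoxic list had 1 fall among 19, the death ligand Fasl (-0.47), and a median of -0.37. Its fall was not called without saline replicate 1 or 2 or bleomycin replicate 2 or 3 (adjusted p = 0.0655 to 0.0995), when the list had 0 calls, and the list had 2 falls without bleomycin replicate 1. Gzma, a granule protease, read 10.22, 10.21 and 10.22 against 10.02, 9.62 and 9.33 without passing (-0.56, adjusted p = 0.205), where wild type had -2.29, and the difference passed (1.72, adjusted p = 0.0104). Dendritic cell and class II genes gave 4 rises among 22, Cd86 (0.68), Cd83 (0.66), Itgae (0.64) and Flt3 (0.37). They were not called once knockout saline replicate 2 or 3 or bleomycin replicate 2 or 3 was left out, when 0 of the 22 passed. H2-Aa, a class II chain, changed by 0.22 (adjusted p = 0.276). The mast cell list (0 of 14) and the interferon-stimulated list (0 of 32, median 0.08) had no calls.

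Cell cycle genes rose in knockout lung, and by less than in wild type. Of 40 measured 14 rose, 0 fell and 38 changes were positive, with a median of 0.48. Cdk1, the mitotic kinase, read 5.88, 5.50 and 5.49 after saline and 6.69, 7.14 and 7.31 after bleomycin. Its groups did not overlap, a 2.68-fold rise (1.42 ± 0.18, adjusted p = 0.00169). Ube2c, the ubiquitin-conjugating enzyme of the anaphase-promoting complex, read 5.12, 4.83 and 5.45 against 6.20, 6.35 and 6.65 (1.27 ± 0.17, adjusted p = 0.00237). Cdc20, which activates that complex, read 6.98, 6.82 and 6.71 against 7.38, 8.01 and 7.82 (0.90 ± 0.15, adjusted p = 0.00698). Aurka, a spindle pole kinase, rose by 0.72 (adjusted p = 0.00382) on the probe set used, while a second probe set gave -0.08.

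The size of this group depended on single arrays. Rises numbered 10, 5 and 8 without knockout saline replicate 1, 2 or 3 and 16, 4 and 6 without bleomycin replicate 1, 2 or 3. Cdk1, Ube2c, Cdc20 and Aurka kept their calls throughout. Top2a (1.35), Ccna2 (1.07), Mki67 (1.06), Birc5 (1.0), Cenpf (0.99), Cenpe (0.93), Ccnb2 (0.85), Rrm2 (0.75), Kif20a (0.66) and Prc1 (0.66) each lost theirs under at least 1, for Mki67 with adjusted p up to 0.191. In wild type the median change of the list was 1.75, and 28 of the 40 genes had a smaller change in knockout by the test of the difference, beside 3% of all genes, with 0 larger. Cdk1 changed by 2.69 in wild type (difference -1.26, adjusted p = 0.0172) and Ube2c by 2.45 (difference -1.18, adjusted p = 0.0183).

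Promoters are shown for 2 of these genes and for Ctsd because members of the cell cycle and lysosomal lists moved together. The windows come from RefSeq on GRCm38.p6, and each runs 5′ to 3′ on the gene's strand from 250 bases before the start to 50 after it. Capitals mark matches on either strand to CCAAT (read as ATTGG on the other strand) and to TTTGAA (read as TTCAAA there), elements known from promoters of mitotic genes, or in Ctsd to CACGTG, the E-box core. Cdk1 lies on the minus strand at chr10:69352863-69353162, with 3 CCAAT and 2 TTTGAA matches. Ube2c lies on the plus strand at chr2:164769679-164769978, with 6 CCAAT and 1 TTTGAA match, of which a pair on opposite strands overlaps. Ctsd lies on the minus strand at chr7:142387778-142388077, with 2 CACGTG matches.
Cdk1: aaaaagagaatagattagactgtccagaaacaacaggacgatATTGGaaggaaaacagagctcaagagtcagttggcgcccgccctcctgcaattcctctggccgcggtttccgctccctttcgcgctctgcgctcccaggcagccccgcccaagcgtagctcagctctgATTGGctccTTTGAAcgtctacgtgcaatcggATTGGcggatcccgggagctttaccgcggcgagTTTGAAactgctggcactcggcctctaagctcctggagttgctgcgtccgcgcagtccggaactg
Ube2c: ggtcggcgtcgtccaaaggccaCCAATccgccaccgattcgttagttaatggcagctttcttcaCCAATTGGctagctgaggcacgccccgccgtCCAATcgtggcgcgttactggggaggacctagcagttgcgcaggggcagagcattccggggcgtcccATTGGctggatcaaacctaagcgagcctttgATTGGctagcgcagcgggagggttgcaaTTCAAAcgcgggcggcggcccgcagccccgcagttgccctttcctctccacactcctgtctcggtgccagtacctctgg
Ctsd: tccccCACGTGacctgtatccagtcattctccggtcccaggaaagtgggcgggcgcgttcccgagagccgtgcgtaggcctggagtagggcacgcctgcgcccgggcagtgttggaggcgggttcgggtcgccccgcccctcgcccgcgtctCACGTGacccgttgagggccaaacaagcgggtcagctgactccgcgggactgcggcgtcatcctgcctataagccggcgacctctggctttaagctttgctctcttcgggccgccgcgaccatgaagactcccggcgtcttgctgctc
CCAAT was present in 11 of 12 windows of cell cycle genes that rose (91.7%), in 22 of 32 windows of the list (68.8%) and in 37.9% of all 27025 windows. TTTGAA was present in 9 of the 12 (75%), 15 of the 32 (46.9%) and 18.1% of all. CACGTG was present in 3 of 15 windows of lysosomal genes that rose (20%), in 8 of 30 of that list (26.7%) and in 7.24% of all. These are matches of letters in a window and were not tested as binding sites.

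Targets of p53, the transcription factor that DNA breaks activate, gave 7 rises and 0 falls among 27 genes. The median over the list was 0.10 beside 0.01 over all genes, with changes from -0.40 to 2.15. Cdkn1a, the inhibitor of cyclin-dependent kinases, read 8.35, 8.47 and 8.66 against 9.29, 9.98 and 9.98, 2.39-fold higher (1.25 ± 0.18, adjusted p = 0.00267), and its difference from wild type did not pass (-0.68, adjusted p = 0.134). Zmat3 (0.59, adjusted p = 0.00826) and Phlda3 (0.57, adjusted p = 0.00943) rose and kept their calls under all alternatives, as did Cdkn1a and Psrc1. The death receptor Eda2r (0.74), Ccng1 (0.61) and the nuclease Aen (0.56) rose but lost their calls in some of these alternatives, which left 4, 4, 5, 7, 4 and 4 rises without saline replicates 1 to 3 and bleomycin replicates 1 to 3. Mdm2, the ubiquitin ligase that restrains p53, changed by 0.09 (adjusted p = 0.611).

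Epithelial lists had few calls. None of 19 alveolar type 2 markers passed in knockout, but all 19 changes were positive, with a median of 0.16, and for 13 of them the bleomycin arrays lay wholly above the saline arrays, as for 15.2% of all genes. The mean level of the list was 11.96 to 12.01 in knockout saline and 12.16 to 12.23 in knockout bleomycin arrays, against 12 to 12.05 in wild-type saline arrays and 11.3, 11.96 and 11.9 in wild-type bleomycin arrays. Abca3, the lamellar body lipid transporter, gave 0.35 in knockout and -0.54 in wild type, a difference of 0.88 (adjusted p = 0.0324), although its probe sets disagreed in sign in knockout. Chil1, a chitinase-like protein, gave 0.30 and -0.92 (difference 1.22, adjusted p = 0.0394), and Napsa, the protease that matures surfactant proteins, 0.41 and -0.46 (difference 0.87, adjusted p = 0.0455). The surfactant genes Sftpc (0.04, adjusted p = 0.814) and Sftpb (0.12, adjusted p = 0.729) were not called. Abca3, Chil1 and Napsa were chosen after their values were seen, and wild-type bleomycin replicate 1 was the lowest array of the 12 in all 3.

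Igfbp2 was the 1 alveolar type 1 marker of 20 that rose, and Ager, the type 1 receptor for glycation products, changed by 0.08 (adjusted p = 0.665). Of 25 ciliated cell markers 0 were called and 1 change was positive, with a median of -0.23 in knockout against -0.79 in wild type. In wild type 20 fell, beside 14.4% of all genes. Foxj1, the ciliated cell transcription factor, gave -0.06 (adjusted p = 0.876), and its sign turned without saline replicate 2 or 3 or bleomycin replicate 1. Of 22 club and secretory markers 0 were called, and Scgb1a1, the club cell secretoglobin, gave -0.07 (adjusted p = 0.654). The list of transitional and basal epithelium, which holds keratins and other genes of these cells, gave 4 rises among 21, Cdkn1a, Sprr1a, Itgb6 and Lgals3, of which none is a keratin. They numbered 3, 2, 2, 4, 2 and 3 as single knockout arrays were left out in the same order. Sprr1a, a cornified envelope protein, read 4.26, 4.49 and 4.30 against 5.19, 5.76 and 5.71 (1.20 ± 0.20, adjusted p = 0.0074), and with Cdkn1a it kept its call throughout. Itgb6, the epithelial integrin chain that activates latent TGF-beta, read 8.24, 7.81 and 7.94 against 8.93, 9.09 and 8.74 (0.92 ± 0.18, adjusted p = 0.0172). Its adjusted p was 0.088 without saline replicate 2, 0.0602 without saline replicate 3 and 0.0766 without bleomycin replicate 2. Krt8 was not called (0.33, adjusted p = 0.102).

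Genes of muscle and fat fell with a pattern set by single arrays. The mean level of 17 cardiac muscle genes was 8.44, 9.04 and 9.04 in knockout saline arrays and 6.77, 7.73 and 8.72 in knockout bleomycin arrays, so that bleomycin replicate 1 was far below and replicate 3 close to the saline arrays. All 17 changes were negative with a median of -1.19, but 3 passed, Pln, Ryr2 and Mybpc3 (-0.62). Without bleomycin replicate 3 the list had 13 falls, and without any other knockout array it had 0, as it had without wild-type bleomycin replicate 2 or 3 (1 without wild-type saline replicate 1). Nppa, the atrial natriuretic peptide, read 7.76, 8.63 and 8.31 against 4.17, 6.54 and 8.30 (adjusted p = 0.266), and Myh6 changed by -1.42 (adjusted p = 0.101). The mean level of 18 adipocyte genes was 8.0, 7.65 and 7.01 against 6.07, 6.16 and 7.20. Of these 3 fell, Cox8b, Cox7a1 (-1.20) and Lipe (-0.58), with 0, 1, 3, 2, 0 and 7 falls as single knockout arrays were left out in that order. Adipoq (-2.62 ± 1.0, adjusted p = 0.184) and Ucp1 (-2.16, adjusted p = 0.15) had the wider changes and did not pass. The skeletal muscle list had 1 fall of 16, Tcap.

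Contractile genes of myofibroblasts and smooth muscle fell where they passed. Of 16 measured 5 fell and 0 rose, with a median of -0.51. Myh11, the smooth muscle myosin, read 9.51, 10.08 and 9.50 against 8.73, 8.79 and 8.97 (-0.87 ± 0.21, adjusted p = 0.0426). The others were Ldb3 (-1.12), Synpo2 (-0.89), Lmod1 (-0.65, adjusted p = 0.0159) and Mylk (-0.31). Falls numbered 2, 1, 2, 1, 0 and 1 without saline replicates 1 to 3 and bleomycin replicates 1 to 3, and 1 without wild-type saline replicate 1 or wild-type bleomycin replicate 2 or 3. The mean level of the list was 9.49, 10 and 9.60 in saline and 9.08, 9.24 and 9.34 in bleomycin arrays. Acta2, the smooth muscle actin that defines myofibroblasts, read 11.86, 12.38 and 11.89 against 11.30, 11.49 and 11.48. Its groups did not overlap, yet the change was not called (-0.62 ± 0.19, adjusted p = 0.0949), and Tagln was not either (-0.42, adjusted p = 0.247). The cardiac and adipocyte genes above moved with this list, and their part in its falls was not tested.

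Vascular endothelial markers gave 3 falls among 33, Ramp2 (-0.43), Kdr (-0.40) and Tek (-0.39), where 1.29% of all genes fell, with a median of -0.22. The falls were 8 without knockout bleomycin replicate 1, and 0 without any other knockout array, with array medians subtracted, without wild-type saline replicate 1 or without wild-type bleomycin replicate 2 or 3. Pecam1 changed by -0.16 (adjusted p = 0.581). Platelet genes gave 4 falls among 15, of which Tubb1, the platelet tubulin, was firm. It read 8.46, 8.20 and 8.36 against 7.79, 7.26 and 7.01 (-0.99 ± 0.17, adjusted p = 0.00826) and kept its call under all alternatives. Gp5 (-0.54), Ppbp (-0.99) and F13a1 (-0.88, adjusted p = 0.043) each lost theirs in 14 of them, so that Tubb1 alone was left without any knockout array but bleomycin replicate 1. F13a1, the coagulation transglutaminase chain of platelets and macrophages, was also the 1 gene called in opposite directions in the 2 genotypes, with 0.88 in wild type and a difference of -1.76 (adjusted p = 0.00747).

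The metabolic and stress lists had between 0 and 3 calls each, where 3.26% of all genes were called. Sterol and fatty acid synthesis gave 2 rises of 23, Cyp51 (0.49, adjusted p = 0.00699) and Mvd (0.46), and the mitochondrial list 2 falls of 29, Cox8b and Cox7a1. Without saline replicates 1 to 3 and bleomycin replicates 1 to 3 the sterol rises numbered 1, 1, 2, 2, 1 and 2 and the mitochondrial falls 0, 1, 2, 1, 0 and 3. Antioxidant genes had 0 calls of 22. The unfolded protein response had Sdf2l1 (0.52) and Derl3 higher and Chac1 (-0.46) lower of 23, with 0 to 2 of these calls left without single knockout arrays. Of 26 immediate early genes Fosl2 (0.42) rose, although its adjusted p reached 0.133. Nr1d1, a repressor of the circadian clock, read 9.96, 9.84 and 9.86 against 9.32, 8.80 and 8.85 (-0.89 ± 0.15, adjusted p = 0.00826), and was the 1 clock gene of 17 called. Its wild-type change was -1.21. The time of day of harvest is not given in the sources used here. The glucocorticoid list had 1 rise of 12, Cdkn1a, the thymocyte list 1 fall of 9, Cd8b1, and the erythroid (0 of 9) and lymphatic and mesothelial (0 of 16) lists had no calls.

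The knockout response ran in the same direction as the wild-type one but was smaller for many genes. Of the 594 genes that changed in knockout, 122 (20.5%) also differed in the test of the 2 responses, beside 5.02% of all genes. Of these 122, 96 rose with a smaller change than in wild type and 11 with a larger one, 7 fell with a smaller fall, and 8 fell with a larger one or against a wild-type rise. The wild-type change was the larger rise for 257 of the 360 genes that rose and the larger fall for 102 of the 234 that fell. These 594 genes were chosen for passing in knockout, which enlarges their knockout changes. The test of the difference also uses the same knockout arrays. Counts and shares over these genes are therefore not an even comparison of size between genotypes. Among genes called in knockout and in the difference, the most negative differences after Timp1 were those of the laminin chain Lama1 (-2.35), which was dim at 3.74 to 3.98 in saline lungs, the protease Adamts12 (-2.16), Tnc (-2.05) and the secreted Wnt modulator Sfrp1 (-2.01). Adamts12 rose by 1.04 in knockout and 3.20 in wild type, and Tnc by 1.99 and 4.04. Adamts12, Sfrp1 and Lama1 lost the knockout call under 5, 6 and 14 alternatives.

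With immunoglobulin genes left out, the 5 most positive differences among genes called in both tests were of genes that fell by less in knockout. Igha, left out there, rose by more in knockout by a difference of 1.16. Bex2 read 9.18, 9.20 and 9.22 after saline and 8.82, 7.80 and 7.68 after bleomycin (-1.10, adjusted p = 0.0293), with bleomycin replicate 1 near the saline arrays. It changed by -2.99 in wild type, a difference of 1.89 (adjusted p = 0.00982). Without any knockout array but bleomycin replicate 1 its knockout call was lost, with adjusted p up to 0.113. Igfbp6 gave -0.86 in knockout and -2.04 in wild type (difference 1.17, adjusted p = 0.025), Ifi213 -0.71 and -1.63 (difference 0.92, adjusted p = 0.0291), and Cd8b1 -0.60 and -1.46 (difference 0.86, adjusted p = 0.0214). Cys1 gave -0.52 and -1.36, but its probe sets disagreed in knockout (-0.52 and 0.08).

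Genes that wild-type lung changed at least 2-fold were mostly moved the same way in knockout. These were 484 rises and 254 falls, chosen on the wild-type arrays, which the knockout response does not use except through the shared estimate of spread. In knockout 456 of the 484 had a positive change and 233 of the 254 a negative one. Of these 168 rises and 35 falls were called, where 1.98% of all genes rose and 1.29% fell. The median of the 484 was 1.46 in wild type and 0.49 in knockout, and that of the 254 was -1.25 and -0.47. Since the genes were chosen for their size in wild type, which raises the wild-type medians, these pairs are not a comparison of size between genotypes. Against the knockout saline mean, the medians of the 3 knockout bleomycin arrays were 0.25, 0.55 and 0.68 for the first set and -0.21, -0.61 and -0.46 for the second. Replicate 1 thus carried the smallest response of the 3. Of 123 genes called in knockout and not in wild type, the difference itself was called for 17.

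**Figure D5:**
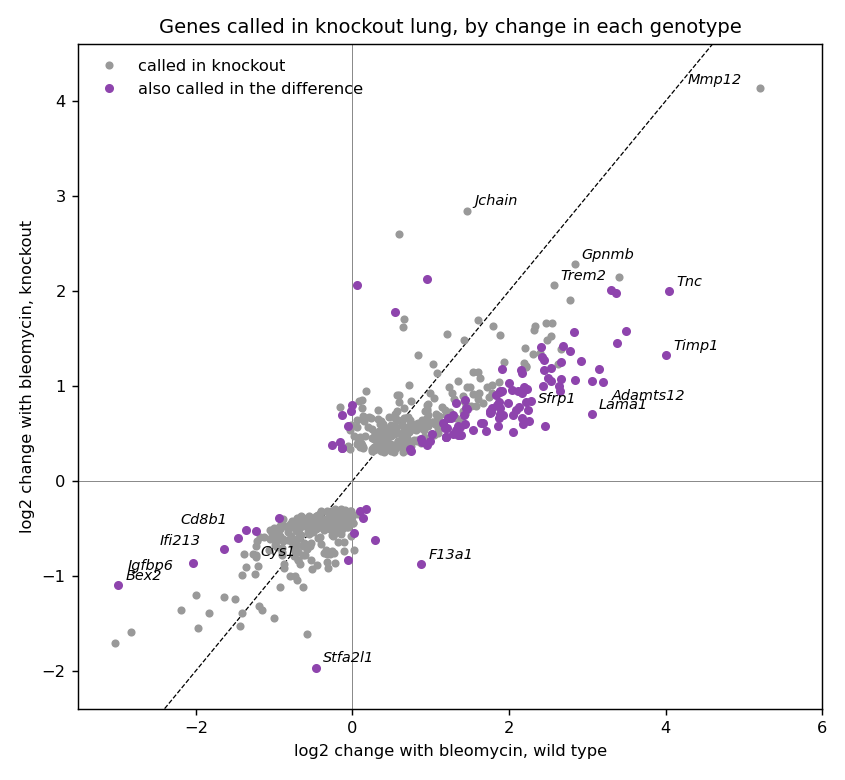
Log2 change after bleomycin in knockout (vertical axis) against wild type (horizontal axis) for the 594 genes called in knockout; purple marks the 122 genes whose difference was also called, and the dashed line marks equal change. Most purple genes that rose lie below the line (96 with a smaller change in knockout, 11 with a larger one).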

How the data were processed

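The authors deposited 1 table of log2 expression values, 45101 probe sets by 12 arrays. Per the submitters' processing notes, the tools were affy, RMA and limma, given without versions or roles. RMA (background correction, quantile normalization and probe summary over all arrays together) makes arrays comparable but pulls their distributions alike and compresses low intensities. No detection calls or scan dates were used here, and the age of the animals and array batches are not given in the sources used here.

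From the deposited log2 values, probe sets annotated to 1 gene (34958; 932 named several and 9211 none) were kept and symbols updated through Entrez identifiers (34754 matched). Each gene was represented by its brightest probe set on average over the 12 arrays, and 9012 genes had more than 1. Group means of all 12 arrays were fitted with limma 3.58.1 in R 4.3.3 (eBayes, 8 residual and 4.86 prior degrees of freedom), and p-values were adjusted by Benjamini-Hochberg over 18194 genes for each contrast. Figures used matplotlib 3.10.9. No pair of arrays was identical. Same-numbered knockout arrays had correlations of deviations of 0.02, -0.10 and -0.03. These show no pairing by replicate number, but with 3 arrays per group they cannot exclude one. Tested on simulated data with known changes, on 18194 genes, this comparison called 72% of log2 changes of 0.5 and 100% of changes of 1, 1.5 and 2, and 3.63% of its calls were false. These shares hold for the simulated spread and not for every gene of these arrays. Genes that varied widely between arrays, such as Adipoq (-2.62) and Ucp1 (-2.16), were not called.

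The members and the 47 gene lists (939 of 1044 names measured) were chosen with earlier results of these data known, so counts over lists describe and support nothing independently. Named were the 12 largest rises and 12 largest falls with arrays that do not overlap, without clone identifiers and immunoglobulin segments; the 5 largest differences each way among genes called in both tests; up to 4 members of a list with the smallest p; textbook markers; and the resistin family. The other called members of a list, and Abca3, Chil1, Napsa, Mzb1, Igha, Ighm and Jchain as members of theirs, were named beyond that rule or after their values were seen. The alternatives were a filter on dim genes (mean under 5), array medians subtracted, quantile normalization repeated, trend and robust eBayes, the mean of all probe sets, the 6 knockout arrays alone, array weights (statmod 1.5.0), a 2-fold minimum, a replicate block and each array left out.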

Additional observations from a re-analysis of the deposited data

Results flagged for a closer look

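The results below are given because the response to bleomycin differed between knockout and wild type in limma's test of the difference itself, with a Benjamini-Hochberg adjusted p under 0.05. Each value is the log2 change in knockout less that in wild type, over 3 arrays per group. The test was read for the named genes, and 5.02% of all genes passed it. Among matrix genes and proteases the change after bleomycin was smaller in knockout for Timp1 (-2.69), Lama1 (-2.35), Adamts12 (-2.16), Tnc (-2.05), Mmp19 (-1.42), Lox (-1.45), Fn1 (-1.35), Eln (-1.30), Col1a1 (-1.27), Mmp14 (-1.17), Col5a2 (-1.0) and Mfap5 (-0.78). Among macrophage, lysosomal, complement and chemokine genes it was smaller for Ccl8 (-1.92), Ccl9 (-1.71), Msr1 (-1.66), Clec4n (-1.39), C3ar1 (-1.26), Cd68 (-1.02), Clec7a (-0.97), Fcgr3 (-0.96), Itgb2 (-0.87), Lgmn (-0.81), Mrc1 (-0.80), Adgre1 (-0.73), Gusb (-0.63), Ctss (-0.59), Ctsa (-0.58), Mpeg1 (-0.55) and Man2b1 (-0.44). Among cell cycle genes and p53 targets it was smaller for Birc5 (-1.64), Ccna2 (-1.59), Kif20a (-1.5), Rrm2 (-1.5), Mki67 (-1.48), Ccnb2 (-1.44), Cdk1 (-1.26), Cenpf (-1.20), Prc1 (-1.20), Ube2c (-1.18), Aurka (-1.05), Cdc20 (-0.94) and Eda2r (-1.02). Further negative differences were those of Arg1 (-4.15), Retnla (-2.33), Sfrp1 (-2.01) and Lrg1 (-0.73). A negative difference belonged also to genes that fell in knockout, namely F13a1 (-1.76) and Stfa2l1 (-1.51). Genes whose change was more positive in knockout were Bex2 (1.89), Gzma (1.72), Chil1 (1.22), Igfbp6 (1.17), Igha (1.16), Ifi213 (0.92), Mzb1 (0.91), Abca3 (0.88), Napsa (0.87), Cd8b1 (0.86), Cys1 (0.84) and Mfap4 (0.75). Gzma, Arg1, Retnla, Lox, Abca3, Chil1, Mzb1 and Napsa did not pass the test of the knockout response by itself. Single arrays far from their group were not sought, as each group held 3.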

How the results depend on the processing

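The number of genes called in knockout (594) was 1286 with array weights and 90 with a 2-fold minimum, and from 211 to 796 when 1 of the 12 arrays was left out. It was 449 with the replicate block, where the block is a shared number for which no pairing is known, and between 505 and 691 under the other 6 settings. The share that rose (60.6%) was 75.5% with array medians subtracted, 65.6% with quantile normalization repeated, 76.7% with a 2-fold minimum and 58.2% to 73.9% with 1 array left out. Genes called in the difference (914) numbered 1888 with array weights, 307 with a 2-fold minimum, 601 with the replicate block and 380 to 1052 with 1 array left out. The fit of the 6 knockout arrays gives no difference.

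Of 164 named genes called in knockout, 74 kept their call in all 12 leave-one-out fits and 68 in every setting but the 2-fold minimum. None of the 164 changed direction under any alternative run, but this was largely fixed in advance. Of all 594 called genes, 1 had overlapping knockout arrays, and leaving out 1 array cannot turn the sign where groups do not overlap. Among genes that were not called, the sign turned for 4. Leaving out 1 array gave -0.21 to 0.021 for Foxj1, -0.58 to 0.012 for Retnla and -0.13 to 0.011 for Retnlb, and averaging all probe sets gave -0.038 for Sftpc. List medians of the knockout change cannot move when a wild-type array is left out, or under trend and robust eBayes or the replicate block. Nor can they in the fit of the 6 knockout arrays. Medians under these settings were thus bound to stay. Of 940 list medians over 20 settings, 908, these among them, moved by less than the spread between arrays. A further 29 moved more with the same sign, and 3 moved more and turned sign. Another 14, from 6 lists, turned sign while moving by less than that spread. The 3 were alveolar type 1 genes (-0.028 to 0.082 with 1 array left out), sterol genes (-0.011 to 0.12) and skeletal muscle genes (-0.49 without dim genes). The cause was not tested.

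Other probe sets gave the opposite sign for Cys1, Igf1r, Aurka, Lipe, Sftpc, Tgfb1, Abca3, Nid1, Igfbp7 and Man2b1. With 3 arrays per group and compressed low signals, small changes are the least certain, and 298 of the 594 were under 1.5-fold.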

Other observations

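Immediate early and stress genes, like the neutrophil genes, differed by genotype after saline. In knockout against wild-type saline lungs, 7 of 26 of these genes were higher by limma's test and 0 lower, beside 0.297% and 0.192% of all genes, with a median of 0.38. The bleomycin response in knockout, which uses the same saline arrays, had 1 rise and 0 falls among them and a median of -0.03.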
